A study of Mus musculus with 6 samples.

Results

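The miR-99/100 and miR-125 miRNAs are made from hairpins that lie beside a let-7 hairpin. Their mature arms were examined in vesicles from mouse brain after status epilepticus, a prolonged seizure. The 7 members were taken by name from the 1926 miRNA features of the deposited table: mmu-miR-99a-5p, mmu-miR-99b-5p, mmu-miR-100-5p, mmu-miR-125a-5p, mmu-miR-125b-5p, mmu-miR-99b-3p and mmu-miR-125a-3p, where mmu stands for mouse and 5p and 3p for the arms of a hairpin. None of the 7 stood in a merged row. All 7 were above 0 in all 6 libraries.

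The SE-BDEV group held 3 small RNA libraries from vesicles of mice that had gone through status epilepticus, and the CON-BDEV group held 3 libraries from matched control mice. All titles carry day 10. No source used here gives the event from which the day is counted, the strain, the age, the sex, how seizures were induced or the number of animals behind a library. Nothing ties each library to an animal of its own, so the p-values cover the spread among these libraries and that spread may be only technical. In a bulk vesicle preparation, fewer vesicles from a given cell type and less of a miRNA per vesicle cannot be told apart.

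In the mouse genome the family sits in 3 gene clusters, each with a miR-99/100 hairpin, a let-7 hairpin and a miR-125 hairpin in the same orientation, an arrangement that is ancient in animals. let-7 and miR-125 were first described as regulators of developmental timing in worms. In mammals LIN28 blocks the maturation of let-7 hairpins, and let-7 and miR-125 both repress LIN28. miR-99 and miR-100 are known to repress MTOR and the IGF1 receptor in human cells, and miR-125b acts on dendritic spines and synaptic strength in mouse neurons.

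In the GENCODE M21 annotation (GRCm38) the Mir99a, Mirlet7c-1 and Mir125b-2 hairpins lie on chromosome 16 in introns of Mir99ahg. The Mir100, Mirlet7a-2 and Mir125b-1 hairpins lie on chromosome 9 in introns of the noncoding genes 3110039I08Rik and Gm49317, the first of which RefSeq lists as a synonym of Mir100hg. Mir125b-1 also overlaps an exon of Gm28119, which is annotated as sense intronic. The Mir99b, Mirlet7e and Mir125a hairpins lie on chromosome 17 within Spaca6, Mir99b and Mirlet7e in an intron and Mir125a overlapping an annotated exon. The submitters' processing notes name another build, mm9, so no positions are given. let-7c-5p also comes from a hairpin on chromosome 15, let-7a-5p from one on chromosome 13, and miR-125b-5p from hairpins on chromosomes 9 and 16. Reads of these 3 arms therefore cannot be assigned to a single cluster.

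The mature sequences show which members share a seed, the stretch from base 2 to base 8 that pairs with targets, and how little separates some members. The 7 members all matched a RefSeq entry (GRCm38.p6). The sequences of the members and of the let-7 arms of their clusters are given 5′ to 3′ with the seed in capitals.
miR-99a-5p: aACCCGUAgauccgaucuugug
miR-100-5p: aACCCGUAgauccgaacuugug
miR-99b-5p: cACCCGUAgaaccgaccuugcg
miR-125a-5p: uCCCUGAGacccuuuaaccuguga
miR-125b-5p: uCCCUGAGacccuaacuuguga
miR-99b-3p: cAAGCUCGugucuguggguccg
miR-125a-3p: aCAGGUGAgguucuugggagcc
let-7c-5p: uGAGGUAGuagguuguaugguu
let-7a-5p: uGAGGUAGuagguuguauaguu
let-7e-5p: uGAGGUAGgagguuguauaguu

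miR-99a-5p, miR-99b-5p and miR-100-5p share the seed ACCCGUA, and miR-125a-5p and miR-125b-5p share CCCUGAG. miR-99a-5p and miR-100-5p are identical at 21 of 22 bases and differ by U16A, counted from 1 at the 5′ end with the base of miR-99a-5p first. miR-99b-5p differs from miR-99a-5p at 4 positions, A1C, U11A, U16C and U21C. miR-125a-5p has 24 bases and miR-125b-5p has 22, and they are identical over the first 13. let-7c-5p differs from let-7a-5p by A19G and let-7e-5p differs from let-7a-5p by U9G. No source used here names the counting tool, so how a read with a single mismatch was divided between miR-99a-5p and miR-100-5p, or among the let-7 arms, is not known, and their separate values are uncertain to that extent. The let-7e-5p row of the deposited table is merged with let-7k.

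The 2 arms of a hairpin were counted separately. The Mir125a hairpin is shown with both mature arms in capitals, since it is 1 of the 2 hairpins with both arms among the members.
Mir125a hairpin: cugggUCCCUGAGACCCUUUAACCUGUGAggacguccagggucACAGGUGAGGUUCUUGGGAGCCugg

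The libraries held an estimated 4996073 to 9391887 reads assigned to miRNAs in SE-BDEV and 4400167 to 8147118 in CON-BDEV. These totals were worked out from the RPM values, with the smallest listed value of each library taken as 2 reads. RPM scales each miRNA's reads to a fixed total of reads assigned to miRNAs in the library. The neuronal miR-124-3p, a check of the labelled tissue, was at 6654 to 9540 RPM in SE-BDEV and 7689 to 9134 RPM in CON-BDEV. Of 3 erythrocyte markers, miR-451a and miR-144-3p had no listed reads in any library, while the merged miR-486a-5p row was at 102 to 111 RPM in SE-BDEV and 83.6 to 199 RPM in CON-BDEV. The 7 neuronal markers together had 25737 to 45519 RPM in SE-BDEV and 27643 to 33844 RPM in CON-BDEV, and the 2 endothelial markers had 4116 to 6342 RPM in SE-BDEV and 2828 to 4276 RPM in CON-BDEV. The 3 oligodendrocyte markers had 198 to 296 RPM in SE-BDEV and 137 to 170 RPM in CON-BDEV, with miR-219a-5p at 0, and the 3 choroid plexus markers had 523 to 780 RPM in SE-BDEV and 304 to 710 RPM in CON-BDEV. The 6 microglial and leukocyte markers together were at 472 to 601 RPM in SE-BDEV and 85.2 to 119 RPM in CON-BDEV. Of the 5 tested, 3 (miR-142a-5p, miR-155-5p and miR-21a-5p) passed the test described below, beside 0.974% (3) of all 308 tested miRNAs. They were the only miRNAs that passed. The list was chosen with earlier results of these data known, so this count is a description only. The part of these cell types in the results below was not tested. Both libraries numbered 3 stood apart by miR-24-3p, at 3128 RPM in SE-BDEV 3 and 3544 RPM in CON-BDEV 3 and listed at 0 in the other 4.

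The 7 members together made up 1.22% ± 0.242 of RPM in SE-BDEV and 1.24% ± 0.103 in CON-BDEV (SD, n = 3 each). The let-7 5p arms of their clusters (let-7c-5p, let-7a-5p and the let-7e-5p row) together held 45.0% ± 3.11 in SE-BDEV and 47.6% ± 1.10 in CON-BDEV (SD, n = 3 each). Within the family the miR-125 seed dominated. miR-125a-5p and miR-125b-5p were 74.1% ± 5.33 of the summed member 5p arms in SE-BDEV and 79.6% ± 1.59 in CON-BDEV (SD, n = 3 each).

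The order of the mean RPM was miR-125b-5p, miR-125a-5p, miR-99b-5p, miR-99a-5p, miR-100-5p, miR-125a-3p and miR-99b-3p. Over all libraries the means were 6075, 3095, 1886, 506, 327, 294 and 104 RPM, which placed the members at ranks 20, 27, 34, 61, 77, 81 and 126 of all features. Each neighbour in this order was above the next in 6 of 6 libraries, with the exception of miR-100-5p and miR-125a-3p, where miR-100-5p was higher in 3 of 6. Levels of different miRNAs also carry the efficiency of adapter ligation and amplification of each sequence, which was not measured.

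**Figure D1:**
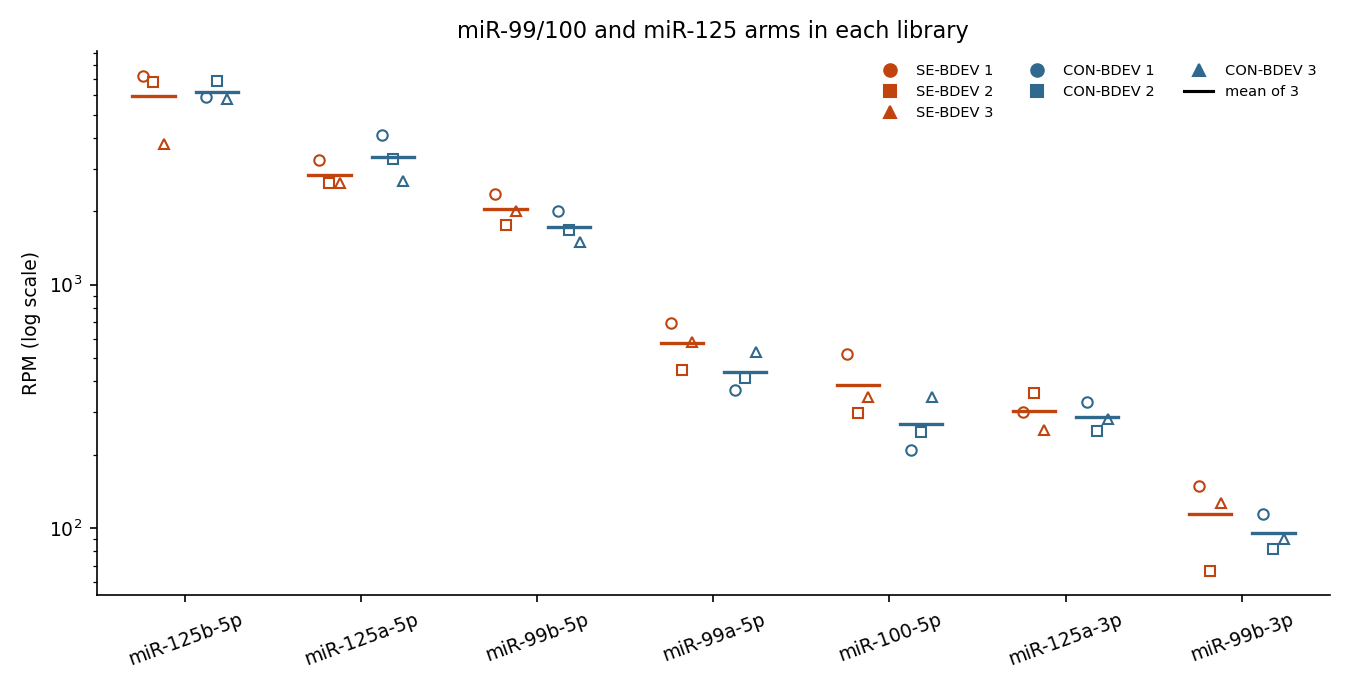
RPM on a log axis of the 7 members in order of their mean, with 1 point per library, SE-BDEV left of CON-BDEV and a bar at each group's mean. The groups overlap for all 7 members, and miR-125b-5p in SE-BDEV 3, at 3773 RPM, lies below the other 5 libraries.

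The comparison of SE-BDEV with CON-BDEV asks whether the vesicle miRNAs differ after status epilepticus. For the miR-99/100 seed the mean of every member was higher in SE-BDEV and for the miR-125 seed the mean of both 5p members was lower, but no difference passed the test. It used limma on log2(RPM + 1) for 308 miRNAs averaging at least 10 RPM, two-sided, with p-values adjusted over all 308 by the Benjamini-Hochberg method. Of the 7 members, 0 had an adjusted p under 0.05, against 0.974% (3) of all tested miRNAs, and 0 had an unadjusted p under 0.05, against 10.4% of all tested miRNAs. The authors' deposited DESeq2 table likewise held 0 of the 7 at an adjusted p under 0.05, against 1.12% of its 625 miRNAs with an adjusted p, and 0 at an unadjusted p under 0.05, against 6.52% of its 797 miRNAs with a p. The groups overlapped for all 7 members. Over all tested miRNAs, 16.2% had groups that did not overlap, 10.7% with SE-BDEV higher and 5.52% with SE-BDEV lower. With only 7 members this is not a contrast to that share. Of the members, 5 had a higher and 2 a lower mean log2 value in SE-BDEV, with a median log2 difference of 0.19, beside 177 higher, 131 lower and a median of 0.061 over all tested miRNAs. A fit blocked on replicate number called 10 miRNAs, and 0 of the members. The sign of the difference turned in 1 of 17 alternative fits for miR-99b-5p and in 3 of 17 for miR-125b-5p.

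miR-100-5p, from the chromosome 9 cluster, had 516, 298 and 344 RPM in SE-BDEV 1, 2 and 3, against 210.0, 249 and 346 RPM in CON-BDEV 1, 2 and 3. SE-BDEV 1 was the highest library, and CON-BDEV 3 lay above 2 of the SE-BDEV libraries. Its log2 difference was 0.51 ± 0.33 (SE), the largest of the 7, with a 95% interval of -0.19 to 1.22 and a limma adjusted p of 0.571. With limma array weights, which give libraries unequal weight, its unadjusted p was 0.0351 and its adjusted p 0.292, and over all alternatives tried its adjusted p was 0.292 to 0.888.

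miR-99a-5p, its near-identical relative on chromosome 16, had 699, 444 and 583 RPM in SE-BDEV 1, 2 and 3, against 369, 415 and 527 RPM in CON-BDEV 1, 2 and 3. As for miR-100-5p, SE-BDEV 1 was highest and CON-BDEV 1 lowest. The log2 difference was 0.39 ± 0.29 (SE), with a 95% interval of -0.25 to 1.02 and a limma adjusted p of 0.661.

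miR-99b-5p, the main source of the miR-99/100 seed, had 2358, 1753 and 2012 RPM in SE-BDEV 1, 2 and 3, against 2016, 1680 and 1497 RPM in CON-BDEV 1, 2 and 3. It supplied 68.2% ± 2.15 of the reads with that seed in SE-BDEV and 70.8% ± 7.31 in CON-BDEV (SD, n = 3 each). The groups overlapped only through CON-BDEV 1, which lay above 2 SE-BDEV libraries. The log2 difference was 0.24 ± 0.24 (SE), with a 95% interval of -0.29 to 0.76 and a limma adjusted p of 0.741, and its sign turned with quantile normalization (-0.073).

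Summed over the 3 members, the miR-99/100 seed reached 3573, 2495 and 2939 RPM in SE-BDEV 1, 2 and 3, against 2595, 2344 and 2371 RPM in CON-BDEV 1, 2 and 3. CON-BDEV 1 lay above SE-BDEV 2, and the other values separated the groups. The log2 sum was higher in SE-BDEV by 0.29 (exact permutation p = 0.2, two-sided, smallest possible 0.1 for 3 against 3). It was 0.022 with quantile normalization (exact permutation p = 0.9) and 0.15 without SE-BDEV 1.

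miR-125b-5p, the most abundant member, had 7246, 6834 and 3773 RPM in SE-BDEV 1, 2 and 3, against 5924, 6898 and 5774 RPM in CON-BDEV 1, 2 and 3. SE-BDEV 3 was the lowest library and SE-BDEV 1 the highest, so the SE-BDEV range enclosed the CON-BDEV range. The log2 difference was -0.11 ± 0.25 (SE), with a 95% interval of -0.66 to 0.43 and a limma adjusted p of 0.901. SE-BDEV 3 decided its sign: without that library the difference was 0.19 (adjusted p = 0.823), and without both libraries numbered 3 it was 0.14. SE-BDEV 3 was also the library with the highest sums of the neuronal (45519 RPM), endothelial (6342 RPM) and oligodendrocyte (296 RPM) markers. Within SE-BDEV it had the lowest sums of the microglial and leukocyte (472 RPM) and choroid plexus (523 RPM) markers. The part of these cell types in the miR-125b-5p value was not tested.

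miR-125a-5p, which shares the seed but comes from the chromosome 17 cluster, had 3265, 2608 and 2611 RPM in SE-BDEV 1, 2 and 3, against 4125, 3280 and 2681 RPM in CON-BDEV 1, 2 and 3. SE-BDEV 2 and 3 lay below all CON-BDEV libraries, while SE-BDEV 1 lay above CON-BDEV 3. The log2 difference was -0.24 ± 0.24 (SE), with a 95% interval of -0.75 to 0.28 and a limma adjusted p of 0.741. It stayed below 0 under all 17 alternatives, at -0.39 to -0.045, and none of them passed. The sum of miR-125a-5p and miR-125b-5p was 8779 ± 2141 RPM in SE-BDEV and 9561 ± 959 RPM in CON-BDEV (SD, n = 3 each, exact permutation p = 0.7, two-sided).

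miR-125a-3p had 298, 358 and 254 RPM in SE-BDEV 1, 2 and 3, against 328, 249 and 279 RPM in CON-BDEV 1, 2 and 3, and neither group stood to one side. Its log2 difference was 0.082 ± 0.29 (SE), with a 95% interval of -0.55 to 0.72 and a limma adjusted p of 0.933. It was -0.010 when RPM was rescaled to a total that omits the top 10 miRNAs.

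miR-99b-3p, the least abundant member, had 149, 66.7 and 126 RPM in SE-BDEV 1, 2 and 3, against 114, 81.7 and 89.7 RPM in CON-BDEV 1, 2 and 3. SE-BDEV held both the highest and the lowest library. Its log2 difference was 0.19 ± 0.35 (SE), with a 95% interval of -0.57 to 0.96 and a limma adjusted p of 0.879.

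The authors' deposited table gave the same sign as limma for 7 of 7 members. Its log2 fold changes were 0.44 for miR-100-5p, 0.31 for miR-99a-5p, 0.15 for miR-99b-5p, -0.33 for miR-125a-5p and -0.13 for miR-125b-5p. The authors' deposited table gave adjusted p of 0.674 to 0.997 for the 7 members.

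**Figure D2:**
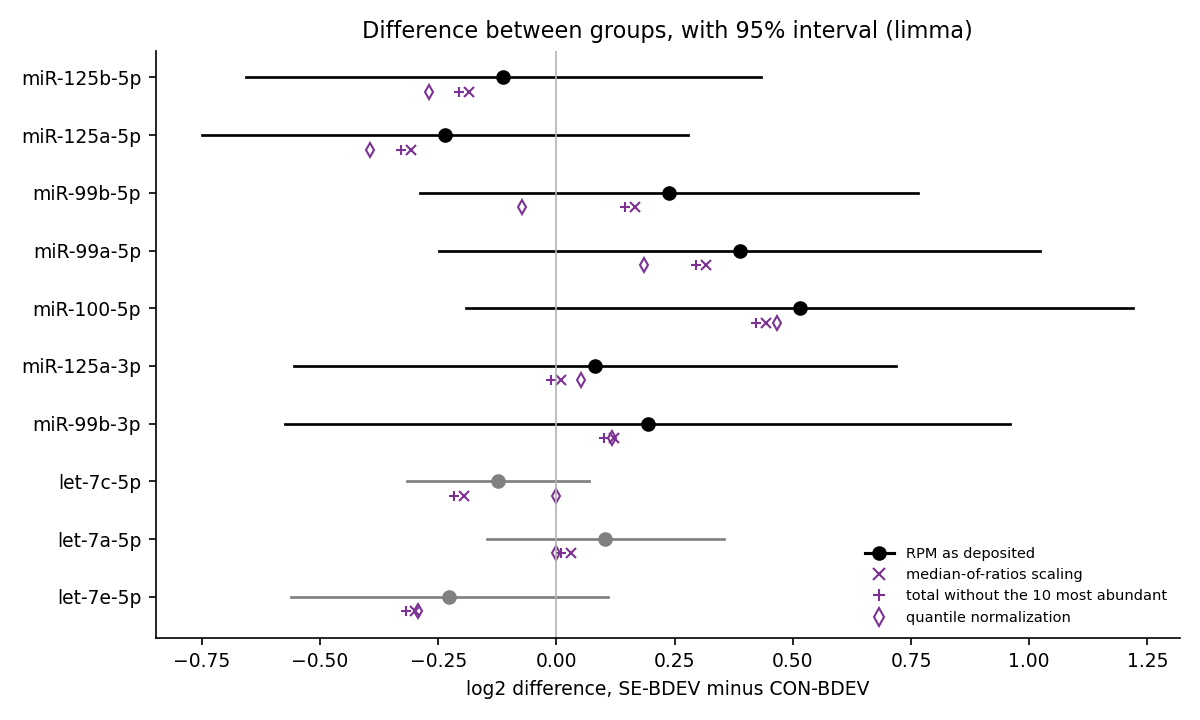
Log2 difference of SE-BDEV minus CON-BDEV with its 95% interval from limma for the 7 members (black) and the let-7 arms of their clusters (grey, let-7e-5p being the row merged with let-7k), with the difference under 3 other scalings as purple marks. All 10 intervals include 0. The black points run from 0.51 for miR-100-5p down to -0.24 for miR-125a-5p, and miR-99b-5p and miR-125a-3p change sign under at least 1 other scaling.

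The clustered let-7 arms themselves did not pass. let-7c-5p was at 312433 ± 26522 RPM in SE-BDEV and 339427 ± 2680 RPM in CON-BDEV (SD, n = 3 each; log2 difference -0.12, limma adjusted p = 0.646). let-7a-5p was at 99934 ± 8587 RPM in SE-BDEV and 92947 ± 6522 RPM in CON-BDEV (SD, n = 3 each; log2 difference 0.10, limma adjusted p = 0.759). The let-7e-5p row was at 37522 ± 6508 RPM in SE-BDEV and 43528 ± 3726 RPM in CON-BDEV (SD, n = 3 each; log2 difference -0.23, limma adjusted p = 0.608).

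Each member was then set against the let-7 arm of its cluster within each library, as reads per 1000 reads of that arm. Such a ratio does not depend on the total to which a library is scaled. Quantile normalization, which is not a common factor per library, can change it and was not applied to the ratios. The family held 10 tests, made of 6 ratios to let-7, 2 ratios between arms and the 2 seed sums, and each was an exact two-sided permutation test over libraries whose smallest possible p is 0.1. The smallest Benjamini-Hochberg adjusted p over the 10 was 0.667.

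On chromosome 17 one of the members separated the groups. miR-99b-5p had 55.1, 44.3 and 66.5 reads per 1000 let-7e-5p reads in SE-BDEV 1, 2 and 3, against 42.2, 40.2 and 36.5 in CON-BDEV 1, 2 and 3. All 3 SE-BDEV libraries lay above all 3 CON-BDEV libraries, the only such case among the 10 tests (log2 difference 0.46, exact permutation p = 0.1, adjusted p = 0.667). Of all 307 miRNAs set against let-7e-5p, 16.3% were higher in SE-BDEV without overlap and 1.3% were lower. A limma fit over these ratios for all 307 miRNAs, added after the values were seen, gave 0.46 ± 0.29 (SE), a 95% interval of -0.18 to 1.11 and an adjusted p of 0.557. Leaving out single libraries gave log2 differences of 0.32 to 0.61, and without both libraries numbered 3 it was 0.26.

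miR-125a-5p, from the same cluster, had 76.3, 66.0 and 86.3 reads per 1000 let-7e-5p reads in SE-BDEV 1, 2 and 3, against 86.3, 78.5 and 65.4 in CON-BDEV 1, 2 and 3. The groups covered nearly the same range, and the log2 difference was -0.0093 (exact permutation p = 1, 95% interval in the added limma fit -0.62 to 0.60).

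On chromosome 16 neither miR-99a-5p nor miR-125b-5p separated the groups, where 13.7% of all miRNAs set against let-7c-5p were higher in SE-BDEV without overlap and 1.95% were lower. miR-99a-5p had 2.22, 1.32 and 2.05 reads per 1000 let-7c-5p reads in SE-BDEV 1, 2 and 3, against 1.08, 1.22 and 1.57 in CON-BDEV 1, 2 and 3. CON-BDEV 3 lay above SE-BDEV 2, and the log2 difference was 0.51 (exact permutation p = 0.2). miR-125b-5p had 18.8 ± 5.01 reads per 1000 let-7c-5p reads in SE-BDEV and 18.3 ± 1.73 in CON-BDEV (SD, n = 3 each, exact permutation p = 0.9).

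On chromosome 9 neither member separated the groups either, where 6.19% of all miRNAs set against let-7a-5p were higher in SE-BDEV without overlap and 5.54% were lower. miR-100-5p had 5.74, 2.84 and 3.28 reads per 1000 let-7a-5p reads in SE-BDEV 1, 2 and 3, against 2.23, 2.52 and 4.03 in CON-BDEV 1, 2 and 3. The groups overlapped through CON-BDEV 3 (log2 difference 0.41, exact permutation p = 0.4). The difference was 0.11 without SE-BDEV 1, 0.24 without CON-BDEV 1, 0.67 without CON-BDEV 3 and 0.77 without both libraries numbered 3. miR-125b-5p had 60.5 ± 22.6 reads per 1000 let-7a-5p reads in SE-BDEV and 66.7 ± 3.51 in CON-BDEV (SD, n = 3 each, exact permutation p = 0.8), with SE-BDEV 3 lowest at 36.0.

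**Figure D3:**
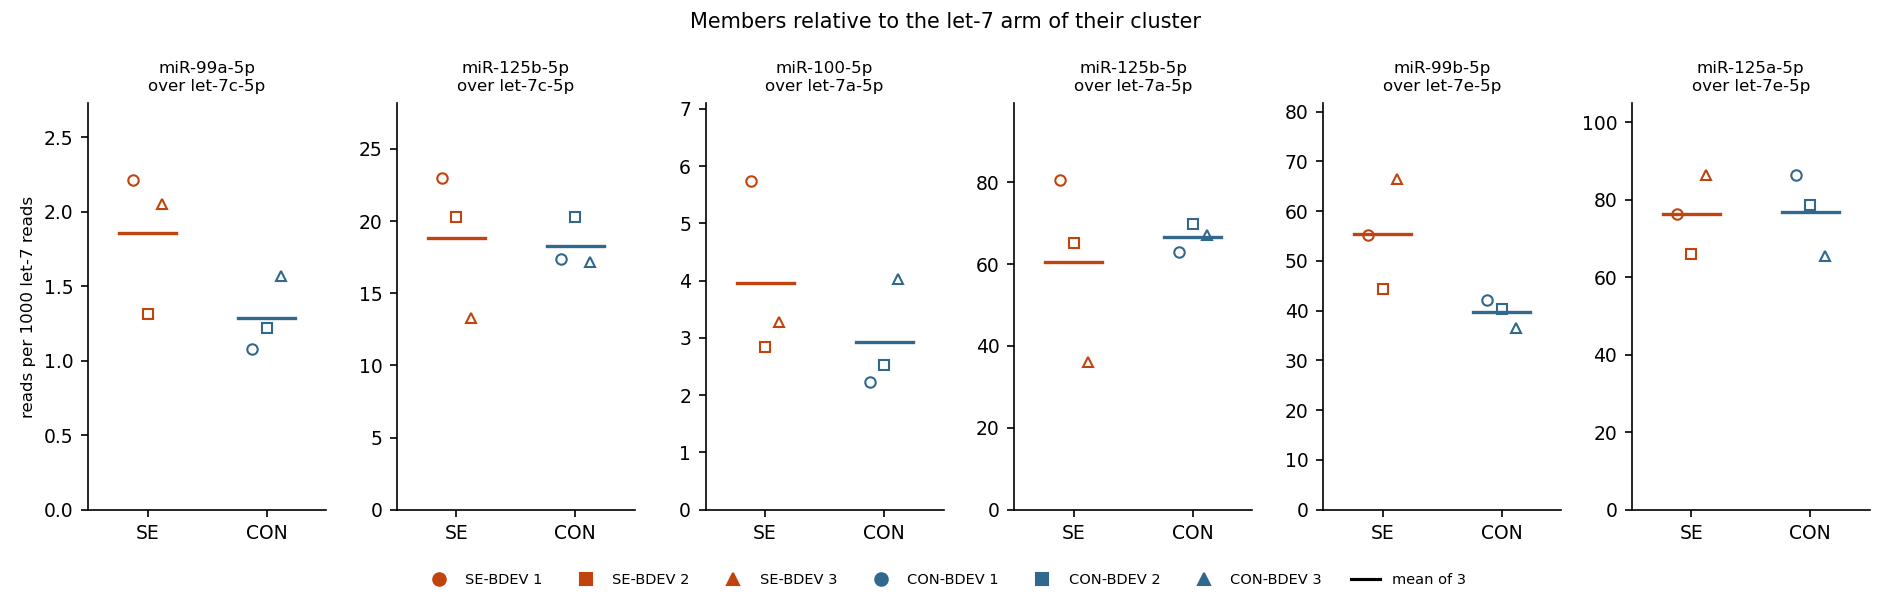
Reads of each member per 1000 reads of the let-7 5p arm of its cluster, on linear axes from 0, with 1 point per library, SE-BDEV left of CON-BDEV and a bar at each group's mean. Only in the panel of miR-99b-5p over let-7e-5p do the groups stand apart, at 44.3 to 66.5 in SE-BDEV and 36.5 to 42.2 in CON-BDEV. Of all 307 miRNAs set against let-7e-5p, 16.3% were likewise higher in SE-BDEV without overlap.

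Within the chromosome 17 cluster miR-99b-5p was also set against miR-125a-5p. This ratio and the like ratios of the other clusters were chosen after the values were seen and are given without a test. miR-99b-5p had 722, 672 and 771 reads per 1000 miR-125a-5p reads in SE-BDEV 1, 2 and 3, against 489, 512 and 558 in CON-BDEV 1, 2 and 3. The groups did not overlap (log2 difference 0.47). The log2 differences of the arms themselves, 0.24 for miR-99b-5p and -0.24 for miR-125a-5p, did not pass. As the pair was picked with its values known, its separation is a description only. Of all tested miRNAs set against miR-125a-5p, 11.1% were likewise higher in SE-BDEV without overlap. The ratios of miR-99a-5p to miR-125b-5p (105 ± 45.4 per 1000 in SE-BDEV and 71.3 ± 17.4 in CON-BDEV, SD, n = 3 each) and of miR-100-5p to miR-125b-5p (68.7 ± 23.9 per 1000 in SE-BDEV and 43.8 ± 14.0 in CON-BDEV, SD, n = 3 each) had higher means in SE-BDEV with overlapping groups.

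The 5p arm was the abundant one of both hairpins with 2 member arms. miR-99b had 15.9, 26.3 and 15.9 5p reads per 3p read in SE-BDEV 1, 2 and 3, against 17.7, 20.6 and 16.7 in CON-BDEV 1, 2 and 3. SE-BDEV 2 was the highest library and the other SE-BDEV libraries were the lowest (log2 difference 0.044, exact permutation p = 1). miR-125a had 10.9, 7.28 and 10.3 5p reads per 3p read in SE-BDEV 1, 2 and 3, against 12.6, 13.2 and 9.60 in CON-BDEV 1, 2 and 3. The SE-BDEV mean was lower with overlap through CON-BDEV 3 (log2 difference -0.32, exact permutation p = 0.3).

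**Figure D4:**
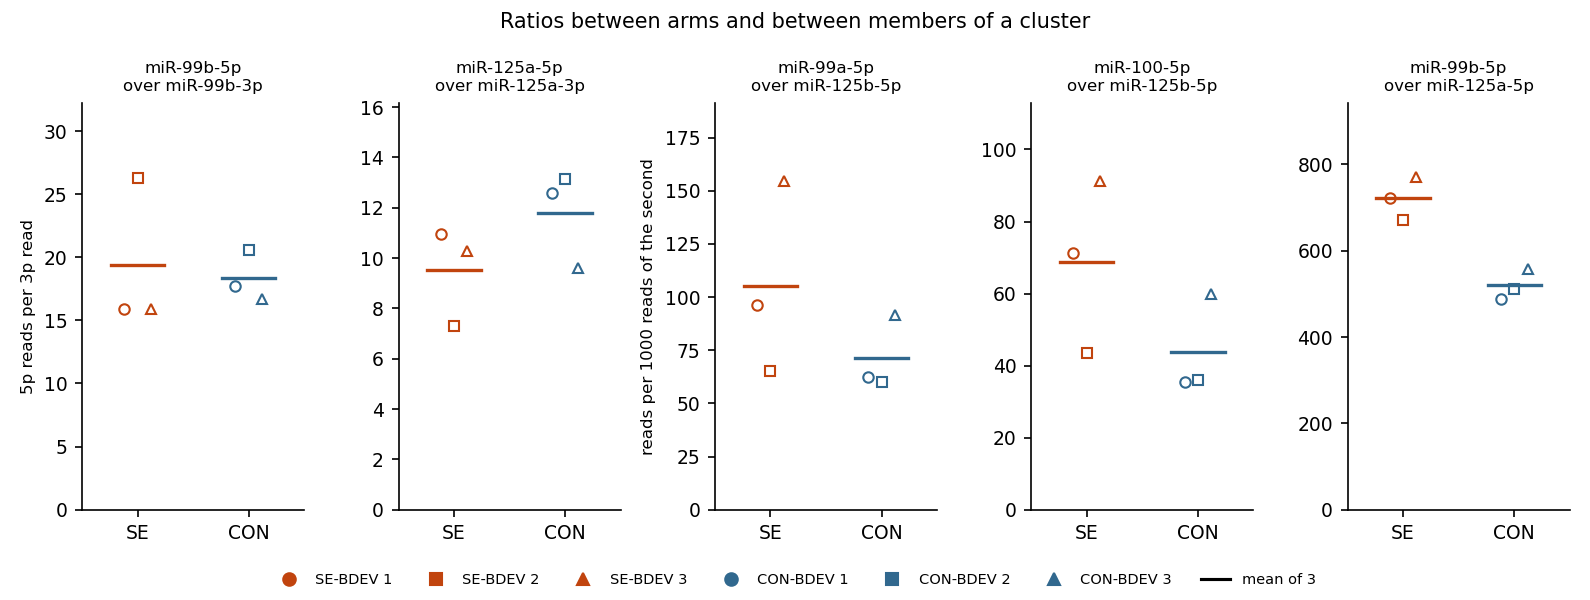
Ratios of 5p to 3p reads for miR-99b and miR-125a and reads of miR-99/100 members per 1000 reads of the miR-125 member of the same cluster, on linear axes from 0, with 1 point per library, SE-BDEV left of CON-BDEV and a bar at each group's mean. The groups stand apart for miR-99b-5p over miR-125a-5p, at 672 to 771 in SE-BDEV and 489 to 558 in CON-BDEV, and overlap in the other panels. Set against miR-125a-5p, 11.1% of all tested miRNAs were likewise higher in SE-BDEV without overlap.

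The other arms of the 3 clusters were low. Of the 7 listed, 3 passed the filter of 10 RPM and 0 of these passed the limma test, beside 0.974% of all tested miRNAs. miR-125b-1-3p, which unlike miR-125b-5p marks the chromosome 9 hairpin, was at 79.9 ± 12.3 RPM in SE-BDEV and 74.0 ± 16.9 RPM in CON-BDEV (SD, n = 3 each; log2 difference 0.12, limma adjusted p = 0.904). miR-125b-2-3p, which marks the chromosome 16 hairpin, was at 9.87 ± 3.69 RPM in SE-BDEV and 13.6 ± 7.03 RPM in CON-BDEV (SD, n = 3 each; log2 difference -0.37, limma adjusted p = 0.795). miR-99a-3p, which shares its seed with miR-99b-3p, was at 11.6 ± 4.99 RPM in SE-BDEV and 13.5 ± 6.37 RPM in CON-BDEV (SD, n = 3 each; log2 difference -0.20, limma adjusted p = 0.901). miR-100-3p was at 1.28 to 2.22 RPM in SE-BDEV and 1.10 to 1.59 RPM in CON-BDEV. let-7e-3p was at 3.41 to 8.94 RPM in SE-BDEV and 3.86 to 11.1 RPM in CON-BDEV, and let-7c-1-3p at 1.06 to 2.81 RPM in SE-BDEV and 0.614 to 4.56 RPM in CON-BDEV. let-7a-2-3p was at 0.444 to 1.001 RPM in SE-BDEV and was at most 0.456 RPM in CON-BDEV, listed at 0 in CON-BDEV 1.

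Among the 1660 features with a RefSeq mature sequence, miR-351-5p was the only other one above 0 with the miR-125 seed, and no other had the miR-99/100 seed. It is shown because it extends the seed group from another locus, on the X chromosome.
miR-351-5p: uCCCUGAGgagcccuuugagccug
miR-351-5p had 85.8, 54.8 and 92.0 RPM in SE-BDEV 1, 2 and 3, against 142, 75.7 and 73.6 RPM in CON-BDEV 1, 2 and 3. The groups overlapped (log2 difference -0.29, limma adjusted p = 0.782).

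The miRNAs whose profile over the 6 libraries was most like each seed sum were found from the root-mean-square difference of centred log2(RPM + 1) values, over the 301 tested miRNAs that are not members. For the miR-99/100 sum they were the merged miR-378a-3p/378b/378c row at 0.083, miR-3083b-5p at 0.084 and miR-34a-5p at 0.10, beside a median of 0.40. For the miR-125 sum they were let-7e-5p at 0.11, miR-672-5p at 0.12 and miR-191-5p at 0.14, beside a median of 0.48. let-7e-5p is the let-7 partner of miR-125a-5p, the smaller part of that sum. The partners of miR-125b-5p, let-7a-5p and let-7c-5p, were not among the nearest profiles, while miR-672-5p and miR-191-5p are not part of these clusters. These differences are descriptions over 6 libraries that share the same totals and scaling.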

How the data were processed

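Small RNA of brain-derived vesicles was profiled in 3 SE-BDEV and 3 CON-BDEV libraries. Per the labels' protocols, RNA came from the miRNeasy Micro Kit with DNase treatment and libraries from the QIAseq miRNA Library Kit. The submitters' processing notes name DESeq2 and mm9. No source used here gives the aligner, the counting tool or any use of molecular identifiers. The authors deposited RPM values per miRNA, and a table of their comparison that holds, for each miRNA, a log2 fold change, the standard error of that change, a Wald test score, p-values and a normalized signal averaged over the libraries.

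Every RPM value was a multiple of a step per library taken as 1 read, with 2 reads the smallest value listed. Single reads are absent from the list, so it was not treated as a count table, and the planned edgeR and DESeq2 fits were not run. The 95% exact binomial interval that was widest relative to its member value was 59.7 to 74.2 RPM (miR-99b-3p, SE-BDEV 2). Intervals cover counting error only.

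Differences were fitted to log2(RPM + 1) with limma 3.58.1 (R 4.3.3, statmod 1.5.0) for miRNAs averaging at least 10 RPM, with intensity trend and robust empirical Bayes, tested on simulated data. Fold changes on this scale understate those of low miRNAs. Ratios and sums were tested by exact permutation (scipy 1.17.1). Figures used matplotlib 3.10.9. Other scalings, pseudocounts, filters, weights, a replicate block and left-out libraries were tried. Named miRNAs were the members, the other arms of their clusters, seed relatives, miR-10a-5p and miR-10b-5p, and the 3 most similar profiles per seed sum. The members and lists were chosen with earlier results of these data known.

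Same-numbered libraries correlated in their deviations from the group means at 0.216, 0.202 and 0.462 for numbers 1, 2 and 3, over the bound of 0.1, so the fit with the replicate number as a block was also made. SE-BDEV 1 correlated more with CON-BDEV 2 (0.336) than with CON-BDEV 1. Without miR-24-3p the correlations were -0.064, -0.061 and -0.081, and no label says that the numbers are pairs.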

Additional observations from a re-analysis of the deposited data

How the results depend on the processing

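No member passed under any of the 17 alternatives of the limma fit, and the smallest adjusted p of a member was 0.292 (miR-100-5p, array weights). The replicate block changed no call of a member. For ratios and sums it could change none, since an exact test over 3 pairs cannot go below 0.25. Against 3 called miRNAs in all, the replicate block called 10, and also 10 once miR-24-3p was dropped, an alternative added after seeing the data like the limma fit over ratios. Array weights called 6, and a minimum average of 100 RPM called 1 of 129. Leaving out single libraries gave 2 to 8, the 8 without CON-BDEV 2. miR-99a-5p, miR-100-5p and miR-125a-5p kept their sign under all 17. The sign turned for miR-99b-5p with quantile normalization (-0.073), for miR-125a-3p when the total omits the top 10 miRNAs (-0.010), and for miR-125b-5p with array weights (0.019) and without both libraries numbered 3 (0.14). Leaving out single libraries gave log2 differences of -0.28 to 0.19 for miR-125b-5p, -0.037 to 0.54 for miR-99b-3p and -0.044 to 0.20 for miR-125a-3p, and with no change of sign 0.24 to 0.56 for miR-99a-5p, 0.13 to 0.35 for miR-99b-5p, 0.28 to 0.71 for miR-100-5p and -0.39 to -0.077 for miR-125a-5p. It gave -0.15 to 0.24 for miR-125b-5p over let-7c-5p, -0.46 to 0.12 for miR-125b-5p over let-7a-5p (0.13 without both libraries numbered 3), -0.12 to 0.090 for miR-125a-5p over let-7e-5p, -0.20 to 0.17 for the miR-99b arms and -0.30 to 0.064 for the miR-125 sum. With no change of sign it gave 0.37 to 0.74 for miR-99a-5p over let-7c-5p, 0.11 to 0.67 for miR-100-5p over let-7a-5p, -0.46 to -0.14 for the miR-125a arms and 0.15 to 0.41 for the miR-99/100 sum, which was 0.022 with quantile normalization. The cause of these changes was not tested. Other scalings moved the median of all tested miRNAs by -0.089 to -0.062, and the share with a higher value in SE-BDEV was 46.8% to 49.0%, against 57.5% with RPM as deposited. With 3 libraries a group, exact tests cannot go below 0.1, so ratios could not pass at 0.05.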

Other observations

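miR-10a-5p and miR-10b-5p are evolutionary relatives of miR-99 and miR-100 from Hox gene clusters. miR-10a-5p carries the seed ACCCUGU.
miR-10a-5p: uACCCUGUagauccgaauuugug
miR-10a-5p had 18.8, 18.8 and 9.33 RPM in SE-BDEV 1, 2 and 3, against 10.5, 4.91 and 9.88 RPM in CON-BDEV 1, 2 and 3. SE-BDEV 3 lay among the CON-BDEV values, and the log2 difference of 0.82 had a 95% interval of -0.16 to 1.80 (limma adjusted p = 0.459). miR-10b-5p was listed at 0 in SE-BDEV 2, at 0.426 RPM in SE-BDEV 1 and 1.04 RPM in SE-BDEV 3, against 2.50, 1.23 and 1.06 RPM in CON-BDEV 1, 2 and 3. On the estimated read totals, a count of 3 reads corresponds to 0.319 to 0.682 RPM in these libraries. miR-10b-5p was thus near the limit of detection, and the groups lay apart only by the gap between 1.04 and 1.06 RPM.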
